A study of Mus musculus with 9 samples.

Results

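Microglia of mice with a familial Alzheimer's disease (FAD) background were compared with wild type microglia on 6 of the 9 arrays of the series, 3 for each genotype. The arrays were taken by their titles, and 22180 genes were tested, each read from its brightest probe set with 1 gene symbol. The cells were sorted by FACS from the brains of perfused female C57Bl/6 mice aged 24 to 28 weeks, all of which had received 8 mg tamoxifen at 6 weeks of age. The wild type group is labelled only Wildtype. The FAD group has the genotype FAD Hdac1/2fl/fl, in which the 5X FAD background is joined to floxed alleles of 2 histone deacetylase genes. No Cre is listed for it, so these genes were floxed and not deleted. By their labels the groups therefore differ both in the FAD background and in the floxed alleles, and the effects of the 2 cannot be told apart. The other 3 arrays, FAD DKO, come from FAD Hdac1/2fl/fl Cx3cr1CreERT2 mice, in which a tamoxifen-inducible Cre from the Cx3cr1 locus deletes both genes. They entered the fit for its estimate of the spread and are given beside some genes as a description.

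Microglia are the resident macrophages of the brain. In mice of the 5X FAD kind, neurons express transgenes of familial Alzheimer's disease, and amyloid plaques form. Microglia gather around the plaques, sense lipids and lipoproteins through the receptor TREM2 and its adaptor TYROBP, and take up a state known for lipid handling, lysosomal proteases and secreted growth factors, with lower expression of homeostatic genes. Type I interferon, a secreted antiviral cytokine, acts through JAK kinases and STAT factors on a separate set of genes, many of which carry an interferon-stimulated response element in the promoter.

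The array medians lay between 5.346 and 5.398 on the deposited log2 scale, and the median gene had an SE of 0.104 for FAD minus wild type. All values below are deposited log2 signals or log2 differences, FAD minus wild type. Signals of different genes are not compared with one another, except where genes are set against the median of all probe sets. That reading is coarse. The microglial identity of the sort was visible in its markers. The mean over 11 measured microglial markers was 11.016, 11.034 and 11.033 in wild type and 10.902, 10.994 and 10.978 in FAD. The signal of each marker, averaged over the wild type and FAD arrays, was set against the median of all probe sets (the array median). Of the 11, 0 lay below it. P2ry12, a purinergic receptor of microglial processes, read 12.08, 12.03 and 12.16 in wild type and 12.07, 12.03 and 11.998 in FAD. By the same measure 11 of 14 lymphocyte and 11 of 15 neuronal markers lay below this median. So did 8 of 13 astrocyte, 7 of 13 oligodendrocyte lineage and 8 of 14 endothelial and mural markers. Most markers of other myeloid cells lay above it: below the median were only 3 of 13 neutrophil, 4 of 14 perivascular and border macrophage and 4 of 10 monocyte markers. Whether each array holds cells of a different mouse is not stated, so p-values measure only the spread between samples, which may be technical. In RNA from sorted cells, fewer cells of a type and less RNA per cell cannot be told apart. The array numbers in the labels also run in group order, so that order and group cannot be told apart.

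The floxed genes were read in every array first. Hdac1 was at 8.07, 8.65 and 8.60 in wild type and at 8.03, 8.14 and 8.19 in FAD, a difference of -0.32 (SE 0.147, limma adjusted p = 0.62). Hdac2 was at 8.28, 8.39 and 8.22 in wild type and at 8.56, 8.52 and 8.36 in FAD, a difference of 0.19 (SE 0.099, adjusted p = 0.667). The ranges of the groups overlapped for both genes. Hdac5 was the 1 member of 11 measured HDAC genes with an unadjusted p under 0.05 (0.17). Of the 20 nearest tested genes of Hdac1, 2 had an unadjusted p under 0.05 (Zbtb8b at -0.27 and Marcksl1 at 0.40), and of those of Hdac2, 0. Of the genes named by the FAD background, App differed by 0.08 and its array values overlapped, and Thy1, whose promoter drives the transgenes in neurons of the 5X FAD strain, differed by 0.19.

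FAD microglia had a higher signal for Lpl, Prkd1, Myo1e, Arsb, Bcl2, Ptchd1 and ND3 and a lower signal for Crabp2 and Gbp7. These 9 genes passed an adjusted p under 0.05 in limma, 0.0406% of the 22180 tested, with 7 higher (0.0316%) and 2 lower (0.00902%). For all 9 the FAD arrays lay apart from the wild type arrays, and 7 of them differed by at least 2-fold. Over all genes, 29 were at least 2-fold higher and 11 at least 2-fold lower in FAD. The median difference of all genes was -0.007, with 47.8% of genes above 0. At an unadjusted p under 0.05, 979 genes were higher (4.41%) and 891 lower (4.02%). These are the shares to set beside each list count below.

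**Figure D1:**
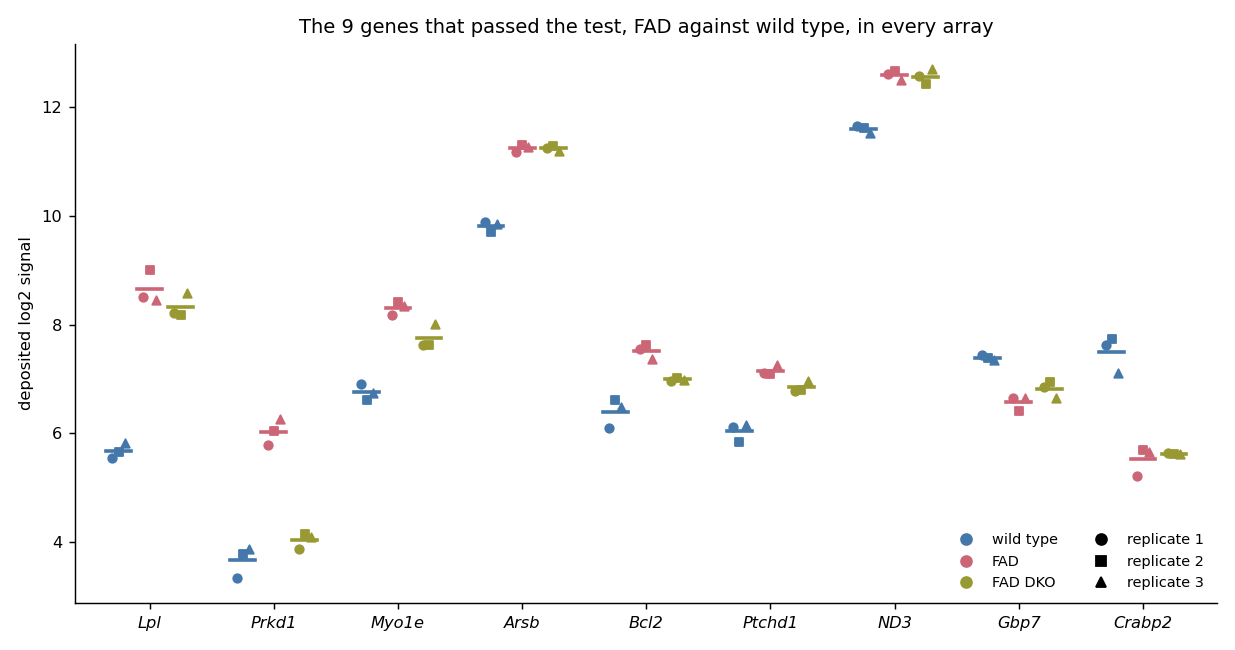
Deposited log2 signal (vertical axis) of the 9 genes that passed, ordered by their FAD minus wild type difference, with 1 point per array, marker shape for the replicate number and a bar for the group mean (n = 3). Every FAD array lies outside the range of the wild type arrays for each gene, and the FAD DKO arrays lie on the same side except for Prkd1, where the lowest of them, 3.86, is level with the highest wild type array.

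Lpl encodes lipoprotein lipase, which releases fatty acids from triglyceride-rich particles. It was at 5.54, 5.66 and 5.82 in wild type and at 8.51, 9.01 and 8.45 in FAD, and rose by 2.98 (SE 0.164, limma adjusted p = 0.000234). The groups lay far apart beside the spread within each. A second, dimmer probe set of Lpl gave 2.73.

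Arsb encodes arylsulfatase B, the lysosomal enzyme that removes sulfate from dermatan and chondroitin sulfate. It was at 9.89, 9.70 and 9.85 in wild type and at 11.18, 11.31 and 11.27 in FAD, and rose by 1.44 (SE 0.0745, limma adjusted p = 0.000234). The wild type and FAD arrays were each close together, and a second probe set gave 1.10. Arsb was the 1 gene that passed among the enzymes of glycosaminoglycan and sulfatide breakdown. Of 20 measured, 13 lay above 0 and the list median was 0.04, beside -0.007 for all genes. The next in size were Galc, the galactosylceramidase (0.45), and Gla, the alpha-galactosidase (0.34). Sgsh, the sulfamidase of heparan sulfate, was at -0.27, and Psap, the precursor of the saposin activators, was at -0.18. In total 5 of the 20 had an unadjusted p under 0.05 on the higher side and 2 on the lower, where 4.41% and 4.02% of all genes did. The 5 became 3 when wild type replicate 3 or FAD replicate 3 was left out, and the 2 became 1 without wild type replicate 1, FAD replicate 1 or FAD replicate 3.

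Prkd1 encodes protein kinase D1, a serine/threonine kinase that acts downstream of diacylglycerol and protein kinase C. It was at 3.34, 3.76 and 3.86 in wild type, among the lower signals of the array, and at 5.78, 6.04 and 6.26 in FAD, and rose by 2.37 (SE 0.162, limma adjusted p = 0.00105). The FAD DKO arrays read 3.86, 4.14 and 4.09. Prkd1 was the only called gene whose FAD DKO arrays did not all lie on the FAD side of every wild type array. Among 11 measured members of the protein kinase D and C families, Prkch, protein kinase C eta, was at 0.47 and Prkcd, protein kinase C delta, at -0.22.

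Myo1e encodes an unconventional myosin that links the membrane to cortical actin. It was at 6.91, 6.62 and 6.74 in wild type and at 8.18, 8.42 and 8.34 in FAD, and rose by 1.56 (SE 0.125, limma adjusted p = 0.00324). The FAD arrays lay close together, and none came near wild type. Of 30 measured myosins and cortical actin genes, 14 lay above 0, and the median was -0.03. Myo5a, a vesicle-carrying myosin, was at 0.93 with an unadjusted p of 0.0003, its arrays at 6.35, 6.32 and 6.36 in wild type and at 7.30, 7.58 and 6.93 in FAD. Vasp, which promotes actin filament growth, was at -0.28.

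Bcl2, the anti-apoptotic founder of its family, was at 6.09, 6.61 and 6.48 in wild type and at 7.55, 7.63 and 7.37 in FAD, and rose by 1.13 (SE 0.128, limma adjusted p = 0.028). The groups did not overlap. A second probe set, dimmer at a mean of 5.78, gave 0.37. The call was kept without wild type replicate 1 (adjusted p = 0.022) or 2 (0.0303) and lost without any of the other 7 arrays (0.0522 to 0.156). Of 18 measured members of the family, 6 lay above 0, and the only other with an unadjusted p under 0.05 was Bcl2l1, which encodes BCL-XL (0.20).

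Ptchd1, a Patched-domain membrane protein of the X chromosome, was at 6.10, 5.84 and 6.16 in wild type and at 7.11, 7.09 and 7.25 in FAD, and rose by 1.11 (SE 0.099, limma adjusted p = 0.00429). A second probe set gave 0.41. The gene was alone among 7 measured Hedgehog receptors and Patched-domain genes in reaching an unadjusted p under 0.05.

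ND3, a subunit of respiratory complex I encoded by the mitochondrial genome, was at 11.66, 11.63 and 11.54 in wild type and at 12.61, 12.67 and 12.51 in FAD, and rose by 0.99 (SE 0.0861, limma adjusted p = 0.00429). It was the 1 gene that passed among the 10 mitochondrially encoded genes measured. The other 9 lay between -0.039 and 0.039, with 0.704 as the lowest unadjusted p. Mitochondrial messages are cut from long shared precursor transcripts. Among 33 nuclear-encoded complex I subunits, 22 lay above 0, with a median of 0.06. An unadjusted p under 0.05 was found for 5, the largest being Ndufa1 at 0.43, but for 0 without FAD replicate 1 or 2, 1 without wild type replicate 2 or 3, 3 without wild type replicate 1 and 2 without FAD DKO replicate 1.

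Crabp2, which carries retinoic acid to its nuclear receptors, was at 7.62, 7.74 and 7.11 in wild type and at 5.21, 5.69 and 5.65 in FAD, and fell by 1.97 on the log2 scale (SE 0.175, limma adjusted p = 0.00429). It fell below every wild type array in all 3 FAD arrays, while 0 of the other members of the retinoid list reached an unadjusted p under 0.05 (23 measured, 9 above 0). Isg20l2, a ribosomal RNA exonuclease gene, is the tested gene next to Crabp2 on chromosome 3. Isg20l2 was at 8.03, 8.06 and 7.54 in wild type and at 6.61, 6.87 and 6.99 in FAD, a difference of -1.05 (SE 0.149, limma adjusted p = 0.0647). Of the 20 nearest tested genes of Crabp2, 10 were higher and 10 lower, with a median of -0.01. Besides Isg20l2, only Gm19439 (-0.43) and Gpatch4 (0.21) reached an unadjusted p under 0.05 among them. The FAD DKO arrays read 5.64, 5.61 and 5.62 for Crabp2. The probes' own positions in these genes were not used here.

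**Figure D2:**
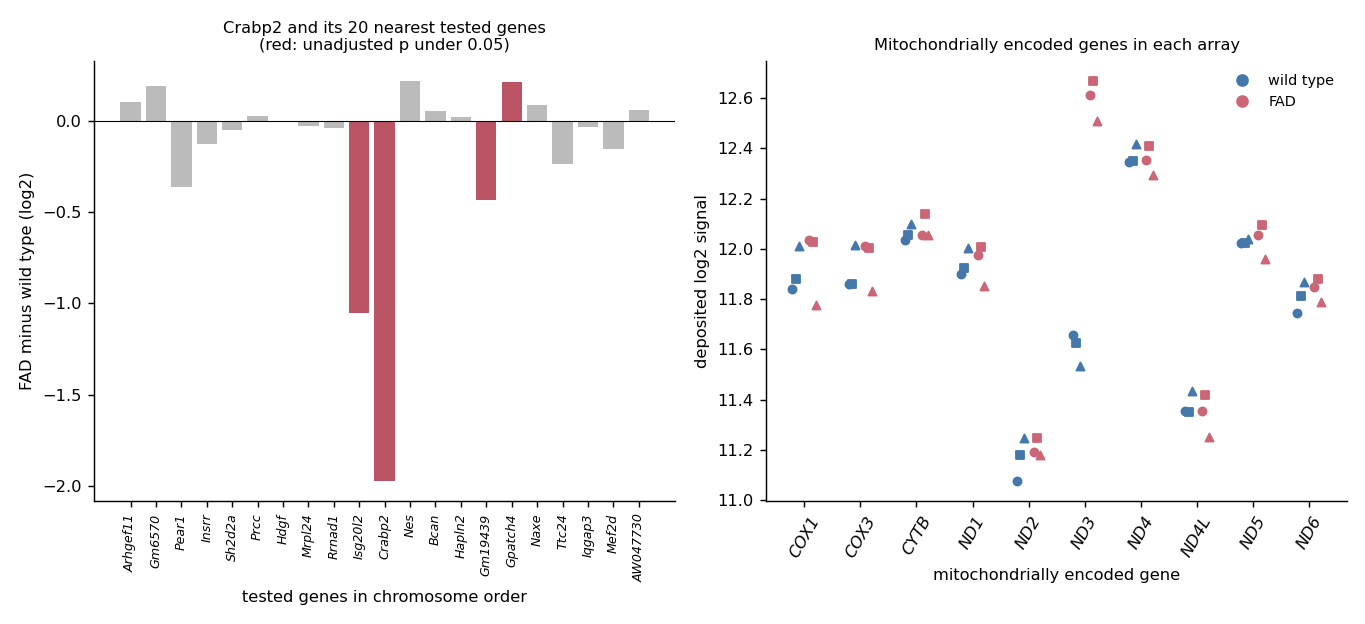
The left panel plots the log2 difference, FAD minus wild type, of Crabp2 and its 20 nearest tested genes in chromosome order, in red where the unadjusted p was under 0.05. The right panel plots the deposited log2 signal of 10 mitochondrially encoded genes in each wild type and FAD array (n = 3 each, marker shape for the replicate), where only ND3 separates the groups, and Crabp2 on the left is the largest drop, at -1.97.

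**Figure D3:**
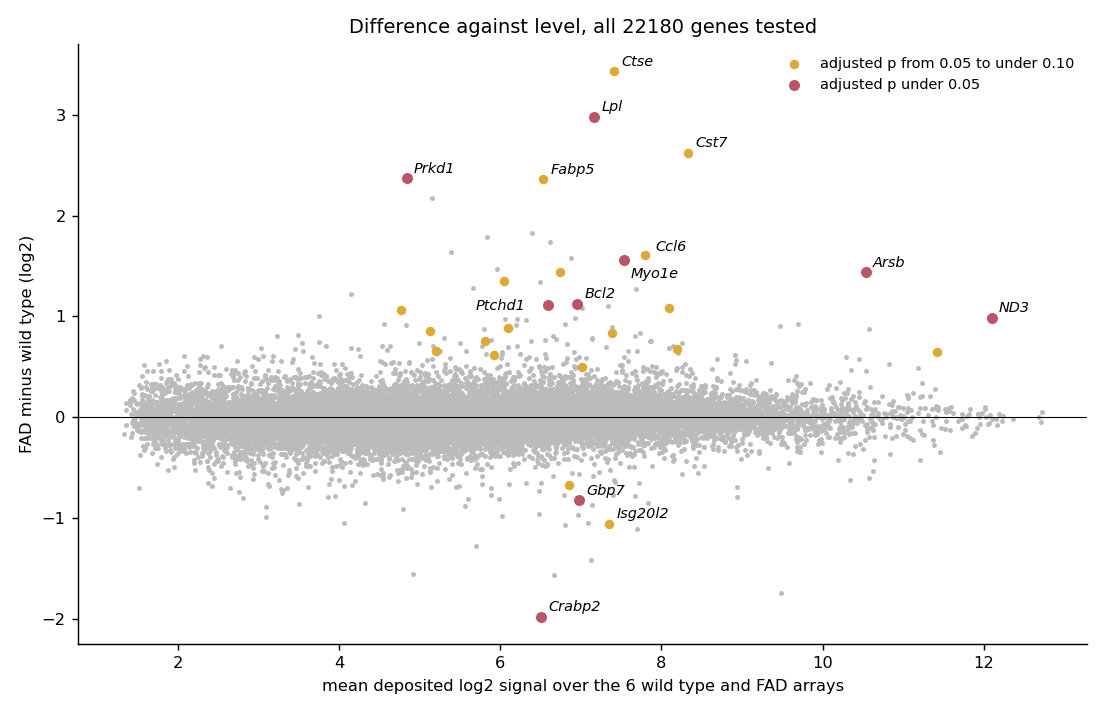
Log2 difference, FAD minus wild type (vertical axis), against the mean deposited log2 signal over the 6 arrays (horizontal axis) for all 22180 genes. The 9 genes that passed are dark red and the 19 genes with an adjusted p from 0.05 to under 0.10 are yellow, and Ctse at 3.43 is the highest point on the plot although it did not pass.

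A further 19 genes had an adjusted p from 0.05 to under 0.10 in limma, 17 of them higher in FAD, and they are given as values. Ctse encodes cathepsin E, an aspartic protease of endosomes. It was at 5.98, 5.38 and 5.74 in wild type and at 8.47, 10.40 and 8.52 in FAD, a difference of 3.43 (SE 0.49, adjusted p = 0.0647), the largest of any gene. FAD replicate 2 stood far above the other FAD arrays, so the spread within FAD was large. Cst7 encodes cystatin F, an inhibitor of lysosomal cathepsins. It was at 7.34, 6.89 and 6.83 in wild type and at 8.65, 10.52 and 9.75 in FAD, a difference of 2.62 (adjusted p = 0.0849). Fabp5, a fatty acid binding protein, was at 6.16, 4.91 and 4.99 in wild type and at 7.51, 8.14 and 7.50 in FAD (2.36, adjusted p = 0.0734). For all 3 of these genes every FAD array lay above every wild type array, and replicate 2 was the highest of the FAD arrays. The list also held Ccl6 (1.61), the growth-response factor Egr2 (0.83), the phospholipid-binding Anxa2 (0.66), the VEGF receptor Flt1 (0.85), the oxygen sensor Egln3 (1.07) and the chemokine Ccl3 (0.65). On the lower side stood Isg20l2 and Gbp10, a guanylate-binding protein (-0.67).

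The genes of plaque-associated microglia lay higher in FAD almost throughout. The list was written with earlier results of these data known, so its direction is a description. Of 43 measured members, 42 lay above 0, and the median difference was 0.56. Lpl was the only member to pass. In 32 members the unadjusted p was under 0.05, all of them higher, and 11 differed by at least 2-fold. The groups did not overlap, with FAD higher, for 31 members, where 6.37% of all genes did so (5.46% with FAD lower).

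Among secreted factors, Igf1 encodes insulin-like growth factor 1, and it was at 5.54, 5.68 and 5.24 in wild type and at 6.801, 8.11 and 7.01 in FAD (1.82, limma adjusted p = 0.155). Csf1, the ligand of the receptor on which microglial survival depends, was at 7.39, 7.09 and 6.67 in wild type and at 8.13, 8.77 and 8.06 in FAD (1.27, adjusted p = 0.175). For both genes the groups did not overlap. Of 25 measured growth factors, Fgf2 was the other with an unadjusted p under 0.05 (0.24). Of 18 measured receptors and binding proteins of the IGF and VEGF families, only Flt1 and Nrp1, a VEGF co-receptor (0.48), reached an unadjusted p under 0.05.

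Surface receptors of the list included Itgax, the CD11c integrin chain, at 6.46, 5.92 and 5.87 in wild type and at 7.27, 8.29 and 7.43 in FAD (1.58). Clec7a encodes the beta-glucan receptor dectin-1 and was at 7.09, 6.798 and 6.46 in wild type and at 7.09, 8.74 and 7.82 in FAD (1.10). FAD replicate 1 was level with wild type replicate 1 for Clec7a. Gpnmb, a glycoprotein of lysosomes and the cell surface, was at 1.47. Trem2 itself was at 10.08, 10.05 and 10.03 in wild type and at 10.06, 10.31 and 10.24 in FAD (0.15, unadjusted p 0.079), and its adaptor Tyrobp was at 0.04. Of 26 measured genes of TREM2 signalling, 6 lay above 0 and the median was -0.05. None was higher at an unadjusted p under 0.05, and 4 were lower, beside 4.41% and 4.02% of all genes. The 4 were the adaptors Dok3 (-0.38) and Sh2b3 (-0.26) and the phosphoinositide 3-kinase subunits Pik3cd (-0.25) and Pik3cg (-0.19). The lower genes numbered 2 without wild type replicate 1 or 2, and without FAD replicate 1 there were 1 lower and 1 higher.

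Within the FAD group the plaque-associated genes differed between arrays. FAD replicate 2 was the highest FAD array for 36 of the 43 members, replicate 1 for 6 and replicate 3 for 1, whereas replicate 2 was the highest for 32% of all genes. The median over members, measured from the wild type mean, was 0.457 in replicate 1, 0.847 in replicate 2 and 0.508 in replicate 3. All arrays shared the direction, since 34, 41 and 38 of the 43 members lay above every wild type array in replicates 1, 2 and 3. Without replicate 2, 27 members had an unadjusted p under 0.05 and the median was 0.51.

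The 11 members with an unadjusted p of 0.05 or more included Ctsd, cathepsin D (0.04), B2m, the light chain of MHC class I (-0.05), and Trem2. The 14 cathepsins measured had a median of 0.03, and besides Ctse the values of Ctsl (0.46), Ctsb (0.22) and Ctsz (0.20) had an unadjusted p under 0.05. All 4 were higher, beside 4.41% of all genes. These 4 became 2 without wild type replicate 3, which also turned the median to -0.007, or without FAD replicate 2. Of 27 measured genes of the lysosomal membrane and proton pump, 4 were higher at an unadjusted p under 0.05 and 0 lower. Over all genes these shares were 4.41% and 4.02%. The 4 were Gpnmb, Mitf, a transcription factor of lysosomal genes (0.30), and the proton pump subunits Atp6v0e (0.27) and Atp6v1d (0.16). Their number was 1 without wild type replicate 3 and 2 without FAD replicate 2.

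**Figure D4:**
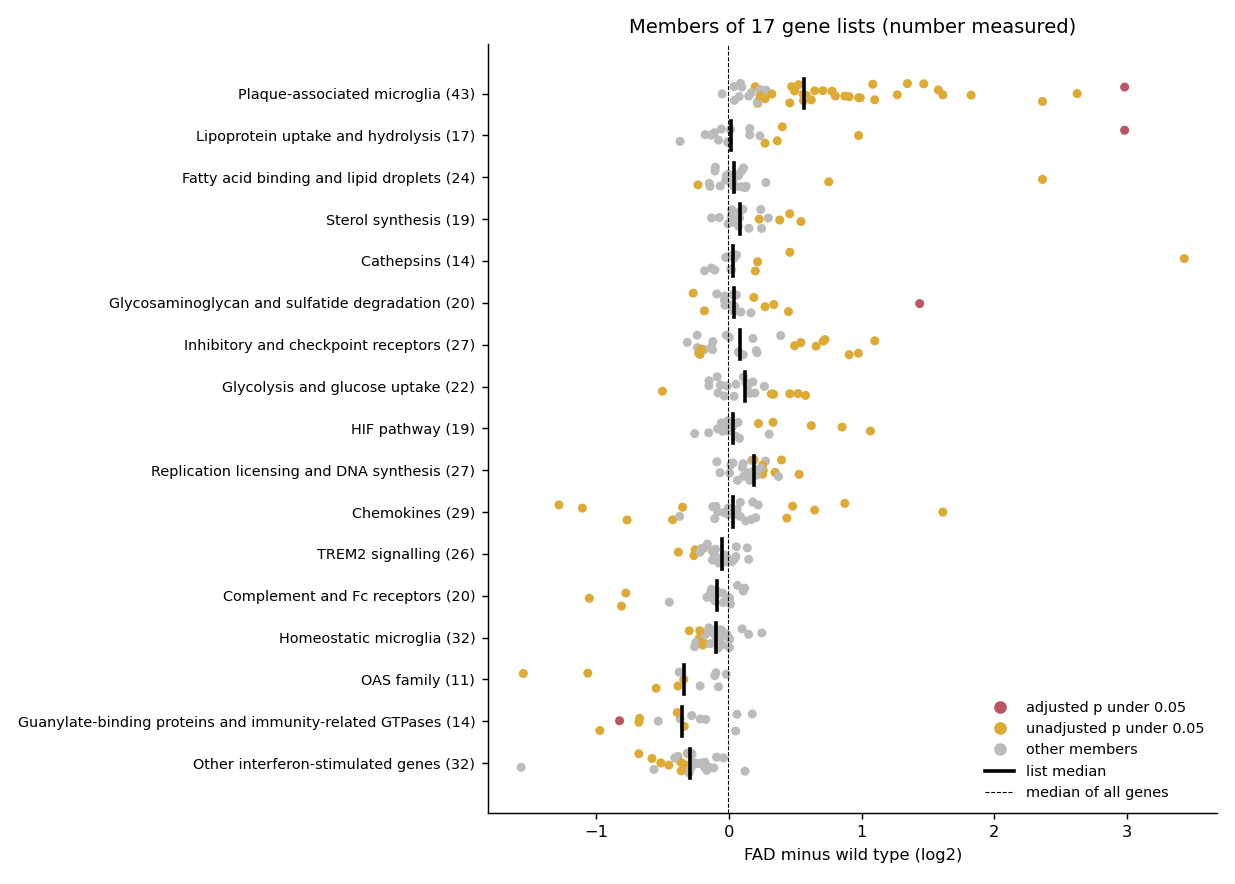
Log2 difference, FAD minus wild type (horizontal axis), of each measured member of 17 gene lists, with a black bar for the list median and a dashed line for the median of all genes (-0.007). Dark red points passed an adjusted p under 0.05 and yellow points had an unadjusted p under 0.05. The plaque-associated list has the highest median (0.56) and the guanylate-binding protein list the lowest (-0.35).

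Lipid genes were measured in lists that share some members with the plaque-associated list, Lpl and Apoe among them. Of 17 measured genes of lipoprotein uptake and hydrolysis, 9 lay above 0 and the median was 0.01. Those with an unadjusted p under 0.05 were Lpl, Apoe, the apolipoprotein that carries lipid between brain cells (0.98), the HDL receptor Scarb1 (0.40), the scavenger receptor Msr1 (0.36) and the lysosomal lipase Lipa (0.27). Apoe was at 5.501, 5.79 and 5.42 in wild type and at 6.28, 6.85 and 6.52 in FAD, and the groups did not overlap. Ch25h makes 25-hydroxycholesterol and was at 1.34, and Nceh1 hydrolyses cholesterol esters and was at 0.99. Of 19 sterol synthesis genes, 16 lay above 0 with a median of 0.08. Of these, 4 had an unadjusted p under 0.05, all higher, beside 4.41% of all genes. They were the sterol carrier Stard4 (0.54) and the enzymes Fdps (0.46), Sc5d (0.38) and Msmo1 (0.23). Without wild type replicate 3 there were 2 higher and 1 lower.

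Glycolysis and oxygen-response genes held several higher members. Slc2a1, the glucose transporter GLUT1, was at 8.43, 8.40 and 8.37 in wild type and at 9.15, 9.01 and 8.77 in FAD (0.58, limma adjusted p = 0.141). The groups were well apart. Of 22 measured glycolysis genes, 14 lay above 0 with a median of 0.12. On the higher side 5 had an unadjusted p under 0.05, beside 4.41% of all genes. The enzymes Tpi1 (0.52), Pgk1 (0.46) and Pkm (0.32) were among them. Ldhb, the lactate dehydrogenase B chain, was at -0.50. The list median was 0.07 without FAD replicate 2. In the HIF list, 10 of 19 lay above 0. An unadjusted p under 0.05 was reached by 5, all higher, beside 4.41% of all genes. They were Egln3, Flt1, the oxygen-regulated factor Hif1a (0.62), the mitophagy receptor Bnip3 (0.33) and the prolyl hydroxylase P4ha1 (0.22).

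Checkpoint and inhibitory receptors went both ways. Of 27 measured, 8 were higher and 3 lower at an unadjusted p under 0.05, beside 4.41% and 4.02% of all genes. The list median was 0.08. The median was -0.03 without FAD replicate 3 and 0.19 without FAD replicate 1, so the list had no settled direction, and the 3 lower became 1 without FAD replicate 1 or FAD DKO replicate 1. Lag3, an MHC class II binding checkpoint receptor, was at 9.28, 9.05 and 8.95 in wild type and at 9.56, 9.69 and 9.66 in FAD (0.54, unadjusted p 0.000305). Pdcd1, which encodes PD-1, was at 5.96, 5.55 and 5.66 in wild type and at 6.26, 7.36 and 6.48 in FAD (0.98). Both genes had groups that did not overlap. Lilrb4a, an immunoreceptor with inhibitory motifs, was at 0.91, Siglecf at 0.72 and Cd200r4 at 0.71. The lower members were 3 sialic acid receptors, Siglece (-0.23), Siglecg (-0.22) and Cd33 (-0.21).

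Chemokines went both ways, with 5 higher and 5 lower of 29 measured at an unadjusted p under 0.05. Over all genes these shares were 4.41% and 4.02%. Ccl4, a macrophage inflammatory protein, was at 10.32, 10.36 and 9.73 in wild type and at 11.12, 11.02 and 10.89 in FAD (0.87), and Ccl3, another macrophage inflammatory protein, was at 11.17, 11.19 and 10.94 in wild type and at 11.76, 11.80 and 11.68 in FAD. In the FAD DKO arrays Ccl3 was at 11.20, 11.20 and 11.09. Ccl5, a chemokine that attracts T cells, lay the other way, at 8.32, 8.42 and 7.99 in wild type and at 6.68, 7.40 and 7.34 in FAD (-1.10, limma adjusted p = 0.17). Ccl5 also stands on the list of lymphocyte markers, whose mean over 14 genes was 4.747, 4.86 and 4.805 in wild type and 4.635, 4.611 and 4.675 in FAD. Of these markers 6 lay above 0, and Cd79b (-0.42), Cd4 (-0.32) and Cd3g (-0.26) were the others with an unadjusted p under 0.05, all lower; their part in the Ccl5 value was not tested. The interferon-inducible CXCR3 ligands were lower as well, with Cxcl9 at 6.34, 6.46 and 6.23 in wild type and at 5.09, 4.55 and 5.55 in FAD (-1.28), Cxcl10 at -0.77 and Cxcl11 at -0.35. Cxcl10 overlapped between the groups. The 5 lower chemokines became 3 without wild type replicate 2 or FAD replicate 2.

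Interferon-stimulated genes lay mostly lower in FAD. Pooled over 4 lists (oligoadenylate synthetases, guanylate-binding proteins and related GTPases, other interferon-stimulated genes, and receptors with their JAK, STAT and IRF genes), 65 of 73 genes lay below 0, with a median of -0.272. Gbp7 was the 1 gene that passed. In 22 genes the unadjusted p was under 0.05 on the lower side, beside 4.02% of all genes, and in 0 on the higher. The groups did not overlap for 20, with FAD lower, beside 5.46% of all genes.

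Many of these genes share a short promoter element. The interferon-stimulated response element was searched as 2 copies of GAAA with any 2 bases between them, on both strands of the RefSeq promoter windows, from 250 bases before to 50 bases after each gene start. It was found in 24 of 53 interferon-list genes that have a window (45.3%), beside 657 of 16990 of all tested genes (3.87%). It lay in 7 of 7 guanylate-binding and related GTPase genes that have a window, of 14 measured. Gbp8, Gbp9 and Gbp10 had no window and were not searched. Below are 50-base stretches before the start of 5 genes with the element, Gbp7 and 4 with the unadjusted p under 0.05, from GRCm38.p6 (RefSeq), read 5′ to 3′ on the gene strand. The capitals mark 1 match in each stretch, which reads as 2 copies of TTTC where it lies on the other strand.
Gbp7, chr3:142530263-142530312: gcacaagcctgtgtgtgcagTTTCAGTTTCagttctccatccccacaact
Gbp5, chr3:142496749-142496798: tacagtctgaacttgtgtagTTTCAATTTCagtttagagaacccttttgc
Irgm2, chr11:58214893-58214942: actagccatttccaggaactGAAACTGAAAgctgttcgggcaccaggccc
Oas3, chr5:120777705-120777754: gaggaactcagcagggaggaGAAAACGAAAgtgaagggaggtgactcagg
Ifit1, chr19:34640765-34640814: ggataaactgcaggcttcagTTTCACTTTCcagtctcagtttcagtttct
The strand is + for Gbp7, Gbp5, Irgm2 and Ifit1 and - for Oas3. The Ifit1 stretch holds a second match, left in lower case. A match of letters is not a bound site. Among the 24 interferon-list genes with the element, 23 lay below 0 with a median of -0.279, and 8 had an unadjusted p under 0.05. Among the 29 without it, 24 lay below 0 with a median of -0.106, and 6 had an unadjusted p under 0.05. The element lay in only 2 of 16 receptor and signalling genes, whose list median was -0.06, and in 12 of 23 other interferon-stimulated genes. Genes with and without it therefore also differ in the lists they come from, and the part of the element was not tested. Another sequence, the E-box CACGTG bound by lysosomal regulators, was found in 9.19% of all genes with a window, in 17 of 58 genes of the lysosome lists (29.3%) and in 0 of the 53 interferon genes.

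Gbp7, an interferon-inducible GTPase that defends cells against intracellular pathogens, was at 7.44, 7.39 and 7.34 in wild type and at 6.64, 6.41 and 6.64 in FAD, and fell by 0.82 on the log2 scale (SE 0.0962, limma adjusted p = 0.0322). Its FAD DKO arrays read 6.86, 6.94 and 6.65, below every wild type array. The call was lost without each of wild type replicates 1, 2 and 3, FAD replicates 1, 2 and 3, and FAD DKO replicate 1 (adjusted p 0.066 to 0.201). Among its relatives, Gbp9 was at 7.61, 7.74 and 6.998 in wild type and at 6.15, 6.67 and 6.60 in FAD (-0.97), and Gbp8 (-0.68), Gbp10 (-0.67), Gbp5 (-0.39) and the GTPase Irgm2 (-0.34) were the others with an unadjusted p under 0.05. Of 14 measured in this list, 3 lay above 0, and the median was -0.35. Of these 14, 6 read below the array median. A filter on low signal left 8, with 1 above 0 and a median of -0.36.

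In the oligoadenylate synthetase family, which senses double-stranded RNA, 0 of 11 measured lay above 0 and the median was -0.34. After quantile normalization of the deposited values 1 lay above 0, as with wild type replicate 3 or FAD replicate 1 left out, and 2 did when wild type replicate 2 or FAD replicate 3 was left out. The median was -0.18 without FAD replicate 1. Of the 11, 8 read below the array median, where signals carry little information. A filter on low signal left 3, with a median of -0.55. Oas2 was at 7.89, 7.46 and 6.65 in wild type and at 6.15, 6.28 and 6.38 in FAD (-1.06, limma adjusted p = 0.344). Oas1g was at 6.21, 6.22 and 4.63 in wild type and at 3.36, 4.83 and 4.23 in FAD (-1.55), with overlap. Wild type replicate 3 was the lowest wild type array in both. The other interferon-stimulated genes showed the same spread among wild type arrays. Wild type replicate 1 was the highest wild type array for 28 of their 32 genes, and replicate 3 the lowest for 29. The mean over the 32 was 7.073, 6.793 and 6.571 in wild type and 6.298, 6.556 and 6.599 in FAD, so the third wild type array lay between FAD replicates 2 and 3. Their median difference was -0.29, and -0.16 without wild type replicate 1. Of these 32, 9 had an unadjusted p under 0.05, 2 without wild type replicate 1, 1 without replicate 2, 20 without replicate 3, 2 without FAD replicate 1 and 13 without FAD replicate 3. Among receptors and signalling genes, Ifngr1, the interferon gamma receptor chain, was at -0.32 and Irf7 at -0.38, and the list median was -0.06.

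**Figure D5:**
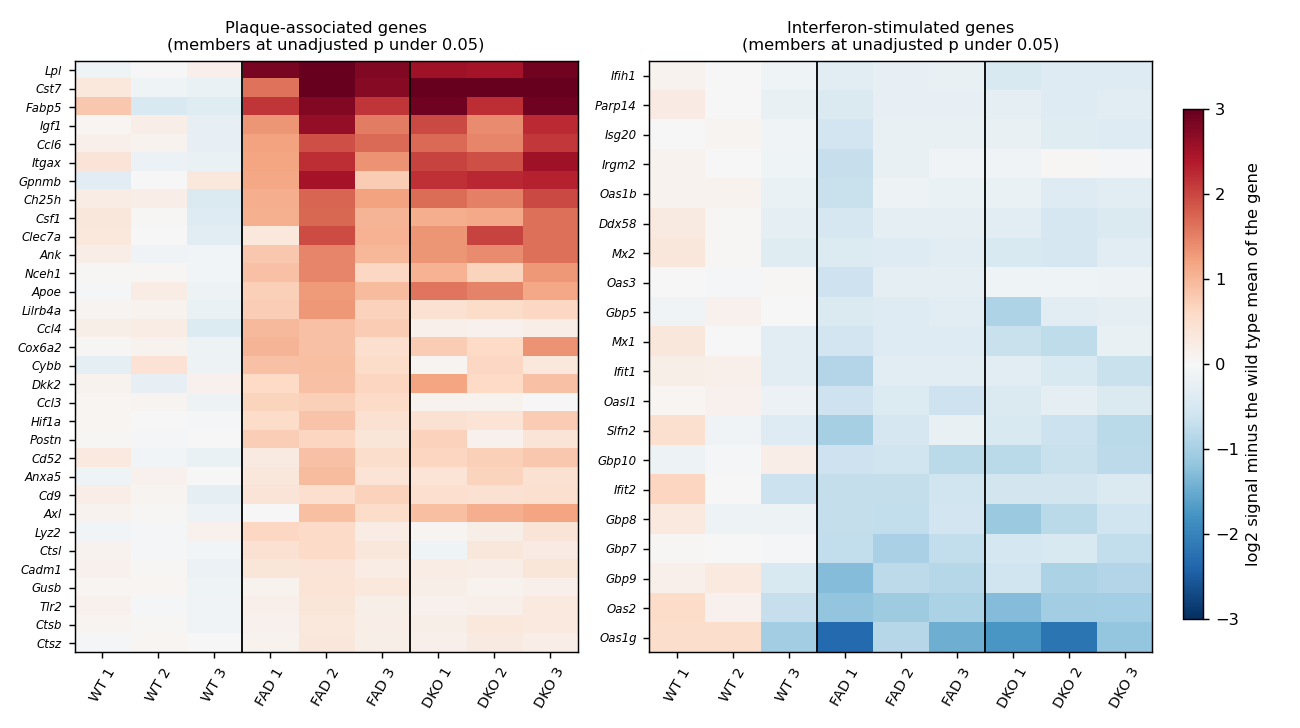
Deposited log2 signal of each array minus the wild type mean of the gene (colour scale, log2 units), for the 32 plaque-associated members and the interferon-stimulated members with an unadjusted p under 0.05. Columns are arrays, 3 each of wild type (WT), FAD and FAD DKO (DKO). FAD replicate 2 is the darkest red of the FAD columns on the left, and on the right wild type replicate 3 is bluer than replicates 1 and 2 in most rows.

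In limma 0 of the measured genes of antigen presentation and complement passed. Of 19 measured MHC class I genes, 6 lay above 0 and 0 had an unadjusted p under 0.05. Of 14 class II genes, the 1 with an unadjusted p under 0.05 was H2-Ea. H2-Ea was at 4.18, 4.07 and 3.94 in wild type and at 8.16, 4.03 and 6.52 in FAD, so that FAD replicate 2 stood with wild type and the other FAD arrays did not. Of 20 complement and Fc receptor genes, 6 lay above 0, the median was -0.09, and 3 were lower at an unadjusted p under 0.05, beside 4.02% of all genes. That number was 0 with wild type replicate 2 or FAD replicate 1 left out, 1 without wild type replicate 1 and 6 without FAD replicate 3. The complement component C4b was at 6.47, 6.47 and 6.23 in wild type and at 4.92, 6.03 and 5.80 in FAD (-0.81), and the C5a receptors C5ar1 (-0.78) and C5ar2 (-1.05) were the other members with an unadjusted p under 0.05.

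Homeostatic genes were lower by small amounts. Of 32 measured, 5 lay above 0, the median was -0.10, and 0 passed. The members with an unadjusted p under 0.05 were Ltc4s, leukotriene C4 synthase (-0.30), the UDP receptor P2ry6 (-0.22), Ecscr (-0.22), the organic anion transporter Slco2b1 (-0.20) and Olfml3 (-0.18). Their number of 5 was 1 without wild type replicate 1, 2 when wild type replicate 2 or FAD replicate 1 was left out, 3 without wild type replicate 3, FAD replicate 2, FAD DKO replicate 1 or FAD DKO replicate 2, and 8 without FAD replicate 3. The groups did not overlap, with FAD lower, for 11 members, where the shares over all genes are 5.46% for this and 4.02% for a lower value at an unadjusted p under 0.05. Tmem119, a membrane protein used to mark microglia, was at 9.45, 9.55 and 9.41 in wild type and at 8.98, 9.20 and 9.49 in FAD (-0.25), with overlap.

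Replication genes were higher by small amounts. Of 27 licensing and DNA synthesis genes measured, 25 lay above 0 with a median of 0.19, and 0 passed. An unadjusted p under 0.05 was reached by 7, all higher, beside 4.41% of all genes. Mcm7, a subunit of the replicative helicase, was at 6.44, 6.52 and 6.26 in wild type and at 6.92, 6.81 and 6.68 in FAD (0.40), and Prim1, the DNA primase subunit, was at 0.53. FAD replicate 1 was the highest FAD array for 19 of the 27, and the median was 0.13 without it. The mitotic list had a median of 0.05, but 17 of its 25 measured genes read below the array median. A filter on low signal left 8, with a median of -0.03 and 0 at an unadjusted p under 0.05. Ndc80, a kinetochore protein, was at 0.91, with wild type arrays below the array median. It read 4.38, 4.39 and 4.37 in wild type and 5.13, 5.09 and 5.66 in FAD.

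Genes of amyloid handling had no common direction. Of 21 measured, 10 lay above 0 with a median of -0.01. An unadjusted p under 0.05 was reached by 3, all higher, beside 4.41% of all genes. Ide, an insulin and amyloid degrading protease, was at 7.11, 7.39 and 7.26 in wild type and at 7.45, 8.20 and 8.09 in FAD (0.66). Aplp2, a relative of App, was at 7.80, 7.69 and 7.55 in wild type and at 8.07, 8.33 and 8.14 in FAD (0.50), and Plau, the urokinase that activates plasminogen, was at 0.37. The groups did not overlap for any of the 3, where 6.37% of all genes had FAD higher without overlap.

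Markers of other cells were read in the same way. Of 10 measured monocyte markers, 7 lay above 0 with a median of 0.26, and their list mean was 5.428, 5.624 and 5.527 in wild type and 5.832, 5.681 and 5.702 in FAD. Among neutrophil markers 12 of 13 lay above 0 with a median of 0.13, and the list mean was 6.113, 6.656 and 6.611 in wild type and 6.625, 6.73 and 6.644 in FAD. Wild type replicate 1 was the low array there, and without it 7 of 13 lay above 0 with a median of 0.01. Astrocyte markers had 3 of 13 above 0. At an unadjusted p under 0.05, 4 (Sox9, Gfap, S100b and Slc1a2) were lower, beside 4.02% of all genes. That number was 2 without wild type replicate 2 or 3 and 1 without FAD replicate 3. The part of all these markers in the results above was not tested.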

How the data were processed

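Each probe set has a log2 signal in the deposited table of 1-colour arrays, made with RMA per the submitters' processing notes (background correction, normalization across arrays and summary over probes). RNA was amplified and biotin-labelled, per the labels' protocols. The version of RMA and the probe annotation are not given in the sources used, and detection calls were not used, so low signals carry little information. Of 41345 probe sets, 25335 were in the table of probe names and 23521 had 1 gene symbol. The brightest of a gene's probe sets over all 9 arrays stood for it.

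The fit used lmFit and eBayes (no trend) of limma 3.58.1, under R 4.3.3, on all 9 arrays, two-sided, with Benjamini-Hochberg adjustment over 22180 genes and calls at an adjusted p under 0.05. The fit was checked on simulated data. Figures used Python 3.11.15 and matplotlib 3.10.9. Lists are described by counts and medians. The genes, lists and motifs were chosen with earlier results of these data known. Named genes were the called genes, the floxed and FAD genes, the 25 largest differences a side, list members with an unadjusted p under 0.05 (or the 4 of smallest p), and neighbours of Crabp2, Hdac1 and Hdac2. Names and gene order came from RefSeq GRCm38.p6.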

Additional observations from a re-analysis of the deposited data

How the results depend on the processing

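The 7 genes called higher and 2 called lower in FAD changed in number with the fit. A filter on low signal gave 28 higher and 5 lower, a trended and robust variance model 33 and 10, array weights 19 higher, and an adjusted p under 0.10 gave 24 and 4. Only the 6 arrays compared gave 5 higher and 0 lower in limma, and at an unadjusted p under 0.05 the 9-array fit had 891 lower genes. Testing every probe set gave 1 lower gene. With the replicate number as a block, 7 genes were called higher and 1 lower. Same-numbered wild type and FAD arrays did not deviate together (correlations of -0.11, 0.0337 and -0.0928). With 3 arrays a group, these values cannot settle whether the numbers pair the samples. Leaving out 1 array gave 7 to 9 higher and 1 to 4 lower. Arsb, Lpl, Myo1e and ND3 were called in all 9 of these fits and under all 7 other settings of the gene test. Crabp2, Prkd1 and Ptchd1 were called in all 9, and in 6, 6 and 5 of the 7; Prkd1 was not tested under the low-signal filter. Bcl2 and Gbp7 were each called in 2 of the 9. The 209 named genes refitted under these settings were chosen by an unadjusted p under 0.05 in the main limma fit. The floxed genes, App and Thy1 were among those kept whatever their p. Of the 209, 0 turned their direction, though this choice and the shared arrays left little room for a turn. The causes of these shifts were not tested. Without detection calls, signal over background limits what can be said of genes near the floor, such as Prkd1 in wild type.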

Other observations

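Some genes separated the FAD arrays from one another more than from wild type, and they were picked after their values were seen. On chromosome 17, Msh5, a DNA mismatch repair gene, was at 5.67, 5.88 and 5.67 in wild type. It was at 8.59, 6.05 and 7.81 in FAD, and FAD DKO read 8.17, 5.76 and 5.66. Its neighbour Sapcd1 was at 6.33, 6.56 and 6.53 in wild type. It was at 8.69, 6.37 and 7.62 in FAD, and FAD DKO read 8.18, 6.21 and 6.24. The class II gene H2-Ea, on the same chromosome, was at 8.16, 4.03 and 6.52 in FAD and at 6.21, 4.21 and 3.72 in FAD DKO. H2-DMa, which loads peptides onto class II, went the other way, at 9.33, 9.32 and 9.33 in wild type and at 7.01, 9.62 and 8.98 in FAD. FAD replicates 1 and 3 and FAD DKO replicate 1 stood apart in the first 3 of these genes, and FAD replicate 2 was close to wild type in all 4.

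On chromosome 7 the adjacent genes C5ar1 and C5ar2 formed another such pair. C5ar2 was at 7.62, 7.65 and 7.57 in wild type. It was at 6.07, 6.05 and 7.56 in FAD, and FAD DKO read 7.79, 7.62 and 6.42. C5ar1 was at 6.93, 7.05 and 7.90 in FAD, beside 7.82, 8.29 and 8.09 in wild type. For both genes FAD replicates 1 and 2 and FAD DKO replicate 3 were the low arrays. A range of at least 1 log2 unit within a group was found for 190 wild type genes (0.857%), 245 FAD genes (1.1%) and 263 FAD DKO genes (1.19%).

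All 9 called genes were protein coding, as were 18964 of the 22180 genes tested. Of 1926 long noncoding RNA genes, 43 were higher and 81 lower at an unadjusted p under 0.05, and of 478 microRNA genes 15 were higher and 28 lower. Of 80 small nucleolar RNA genes, 49 lay above 0, 8 were higher and 3 lower. The shares over all genes were 4.41% higher and 4.02% lower.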
